A study of Xenopus tropicalis with 9 samples.

Results

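Tadpole tails of Xenopus tropicalis lose their muscle, nerve cord, skin and notochord during metamorphosis. The comparison described here set tails at stage 63 from which the notochord had been taken out (notochord-removed tail, 3 libraries) against whole tails at stage 60 (3 libraries). It takes 6 of the 9 RNA sequencing libraries of the study and all genes of its count table. The other 3 libraries, whole tails at stage 63, are set beside it. All animals were wild type, per the series title, with stage 60 described as before metamorphosis and stage 63 as during it. The stage 60 tail still held its notochord, so a gene can be lower in the notochord-removed tail through the stage, through the removal or through both. The labels give no number of animals per library and do not state that replicates were taken from different animals, so the p-values here reflect the variation among the libraries at hand, part or all of which may be technical.

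Frog metamorphosis is driven by thyroid hormone, which enters cells through membrane transporters and binds nuclear receptors that switch from repressing to activating their target genes. In the tail the response includes secreted metalloproteinases that cut collagen, lysosomal enzymes, cell death and the uptake of debris by macrophages. The notochord is a rod of vacuolated cells in a thick collagen sheath that runs along the tail axis and is known to express the T-box gene tbxt, sheath collagens, simple-epithelium keratins and other intermediate filaments.

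Counts assigned to genes ran from 26928846 to 34836531 per library over 19921 genes, of which 14125 were tested. Within groups, the libraries correlated across genes at Spearman's rho from 0.994 to 0.998. Replicate 3 of the notochord-removed tail stood apart from replicates 1 and 2, which differed less from each other: chi-square per degree of freedom was 22.9 and 19.9 against replicates 1 and 2, and 3.09 between those. Whole stage 63 libraries also differed, at 21.9 between replicates 1 and 3, 9.72 between 1 and 2 and 5.06 between 2 and 3, and stage 60 libraries by at most 4.73. Several printed log2 changes against stage 60 that moved without 1 library are given with and without it. Others, such as the small change of tubb2b, are not. Levels are TMM-normalized CPM, counts scaled by the library total times its TMM scaling factor. They suit comparisons of one gene between libraries and not of one gene with another. Changes are log2 fold changes, notochord-removed stage 63 over stage 60, with their standard error (SE). Scaffold positions were copied from the deposited counts, and no source used here names their genome build.

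Of the 14125 genes tested with edgeR's quasi-likelihood test, 6111 (43.3%) were higher and 5602 (39.7%) were lower in notochord-removed stage 63 tail than in stage 60 tail at a Benjamini-Hochberg adjusted p under 0.05. By at least 2-fold, 3290 (23.3%) were higher and 2855 (20.2%) lower. For 83.4% of genes the 3 libraries of one group all lay above the 3 of the other. The make-up of the RNA differed widely: the genes at least 2-fold lower, a class defined by this same comparison, held 23.9% ± 0.194 of all counts in notochord-removed tail and 67.1% ± 0.306 in stage 60 tail (SD, n = 3 each). The genes at least 2-fold higher held 23.4% ± 0.391 in notochord-removed tail and 3.17% ± 0.0588 in stage 60 tail. On average, the 100 leading genes of a library took 37.0% of counts in notochord-removed tail and 53.3% in stage 60 tail. With such a shift, the number of genes called higher or lower depends on the scaling. Scaling by library size alone, in place of TMM, moved the median of all genes by 0.85 on the log2 scale and gave 9794 genes higher and 2566 lower. All changes below are relative to the TMM scale, whose median over all genes was 0.07. In bulk tissue, fewer cells of a type and less RNA per cell cannot be told apart.

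**Figure D1:**
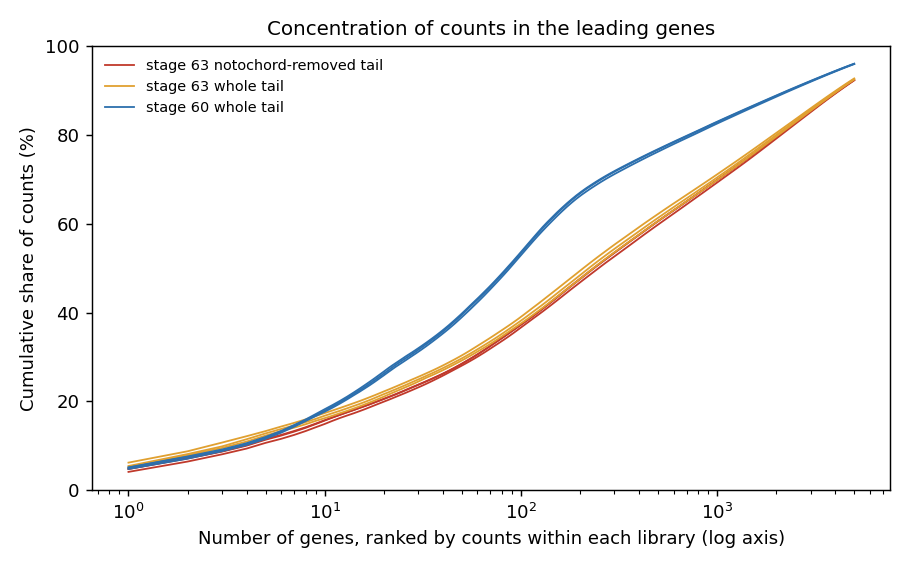
Cumulative share of counts (vertical axis, %) held by the leading genes of each library, ranked within the library (horizontal axis, log scale); 1 line per library, 3 libraries per group. Past the first leading genes, and until the lines meet at the right, the stage 60 lines lie above the rest, with 53.3% of counts in the leading 100 genes against 37.0% in notochord-removed stage 63 tail, and the lines of both stage 63 groups run close together.

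Which genes can be described by name was decided by the authors' selections. Symbols came only with their deposited lists, one of genes with a ratio above 2 between whole tails at stage 63 and stage 60, the other of genes with a ratio above 2 between whole and notochord-removed tail at stage 63. Of 5612 tested genes with a symbol, 5005 (89.2%) were higher in notochord-removed stage 63 tail than in stage 60 tail and 58 were lower. Of those 58 genes, 40 were named through the notochord list alone. Whole tails of both stages, in the same fit, gave 43.0% of genes higher and 40.8% lower at stage 63. The median change, notochord-removed stage 63 over stage 60, was 0.98 over genes with a symbol. For the groups of genes below, a count of members that rose is therefore not independent evidence of direction. Read against 89.2%, such a count is near the background in most groups. Members that go the other way were partly set by the naming too: all 40 tested genes named through the notochord list alone were called lower. The sizes of the changes and the difference from whole stage 63 tail carry the description.

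**Figure D2:**
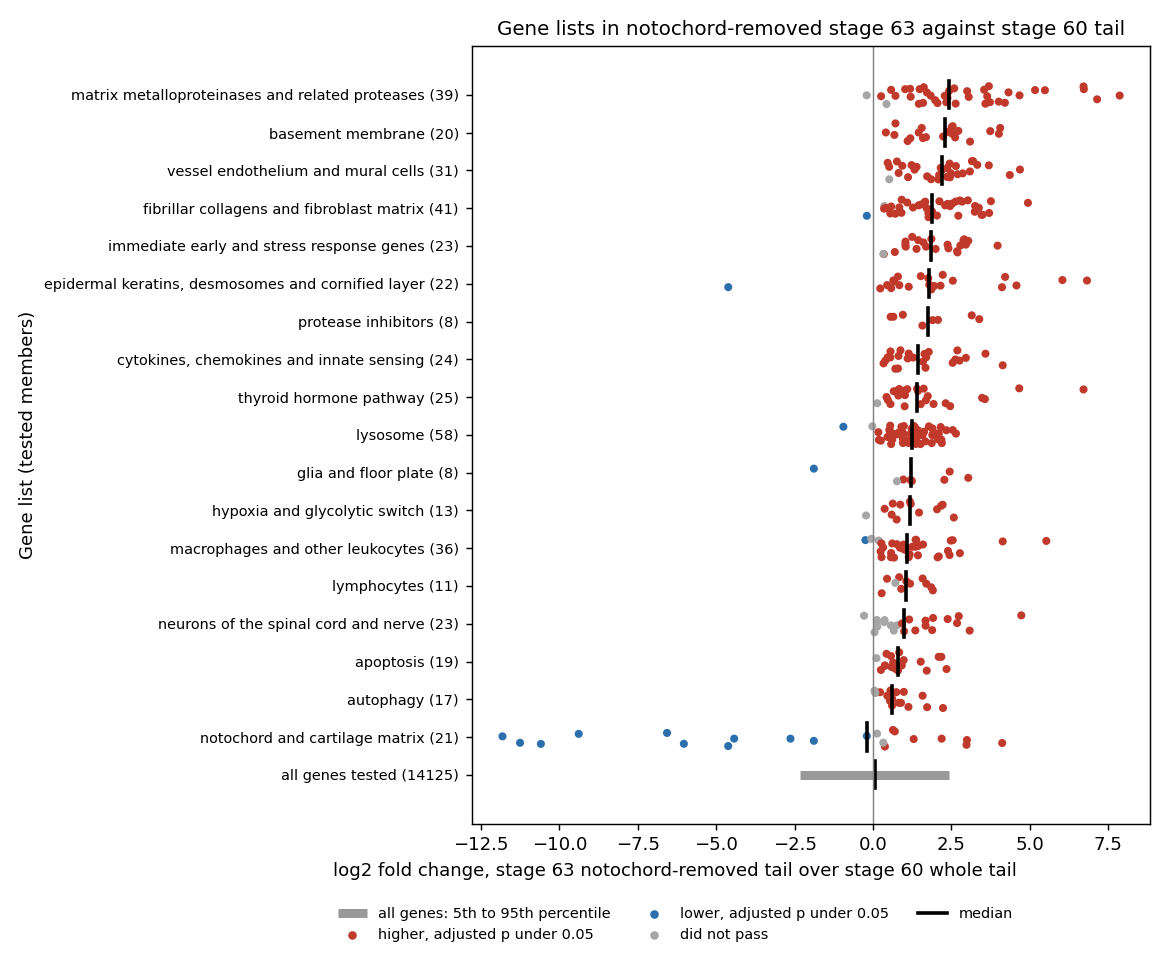
Log2 fold change, notochord-removed stage 63 tail over stage 60 whole tail (horizontal axis), of the tested members of each gene list with at least 8 of them (rows, number of members in brackets); points are genes coloured by edgeR call, black bars are medians. Proteases have the highest median at 2.43, and notochord and cartilage genes reach down to -11.81 while the median over all 14125 genes is 0.07.

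Genes for secreted proteases and keratins were prominent among the largest increases. Ranked by fold change among genes with a symbol and at least 10 CPM in the higher group, the first 10 were slc6a14.2, mmp9-th, mmp13l, enpep, krt17, prss35, adamts17, mmp11, c1qtnf5 and krt5.2. The gelatinase-type metalloproteinase gene mmp9-th (ENSXETG00000033145, scaffold GL172665.1, 3944807 to 3950896) was at 1563, 1605 and 1829 CPM in the notochord-removed libraries, against 12.9, 3.60 and 4.97 CPM in the stage 60 libraries. Its change was 7.86 ± 0.40 (adjusted p = 4.43e-07); leaving out stage 60 replicate 1 gave 8.61 and leaving out replicate 2 gave 7.54, so the size depended on 1 stage 60 library although the groups were far apart. The collagenase-like mmp13l was at 1025, 1010.3 and 899 CPM in notochord-removed tail, against 9.91, 5.92 and 4.86 CPM at stage 60, a change of 7.15 ± 0.18. Stage 60 replicate 1 was the highest of its group for both genes and for krt17 and mmp11.

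Metalloproteinases that cut matrix at the cell surface or in the stroma rose too. The membrane-anchored mmp14 (scaffold GL173428.1, 213573 to 235686), which activates other metalloproteinases, was at 7375, 7328 and 6903 CPM in notochord-removed tail, against 407, 393 and 370.0 CPM at stage 60. Its substrate mmp2, a gelatinase, was at 6965, 6676 and 5932 CPM in notochord-removed tail, against 527, 513 and 472 CPM at stage 60. All 3 notochord-removed libraries lay above all 3 stage 60 libraries for both, with changes of 4.21 ± 0.080 and 3.70 ± 0.089. Stromelysin-3, encoded by mmp11, whose gene thyroid hormone switches on directly in tadpoles, averaged 601 ± 15.4 CPM in notochord-removed tail and 5.73 ± 1.52 CPM at stage 60 (SD, n = 3 each), a change of 6.71 ± 0.12. The ADAMTS proteases adamts17 (6.72), adamts9 (5.48), adamts4 (5.17) and adamts15 (4.67), several of which cut proteoglycans, were among the larger log2 changes, and mmp19 rose by 4.32. The cell-surface peptidases enpep, FAP and dpp4 changed by 7.03 ± 0.25, 2.59 ± 0.069 and 3.64 ± 0.094. For enpep stage 60 held only 5 counts over its 3 libraries, against 1356 in notochord-removed tail.

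The list of metalloproteinases and related proteases had 39 tested members and a median change of 2.43. Of these 37 rose, where 89.2% of genes with a symbol were called higher, and adamts14 (-0.20) and adam19 (0.43) did not pass. The change of the collagenase gene mmp13 was below that median: it was at 94.7, 91.2 and 74.01 CPM in notochord-removed tail, against 22.00, 22.2 and 21.5 CPM at stage 60, a change of 1.98 ± 0.092. In whole stage 63 tail mmp13 was at 985, 920.3 and 857 CPM. The test of the difference between notochord-removed and whole stage 63 tail gave -3.41 ± 0.089 (adjusted p = 9.00e-16). In that test, which over all genes called 2043 (14.5%) higher and 1570 (11.1%) lower in notochord-removed tail, 1 protease was higher and 12 were lower. Genes with a symbol were called at 8.46% higher and 15.3% lower. Among the 12, mmp13l differed by -0.75 ± 0.13, FAP by -0.52 ± 0.064 and mmp9-th by -1.10 ± 0.28, the last at an adjusted p of 0.0266 that ran from 2.04e-07 to 0.0891 over the alternatives. The levels of mmp2 (-0.02 ± 0.080), mmp11 (-0.18 ± 0.083) and mmp19 (-0.12 ± 0.057) did not pass in this test. Of the protease inhibitors, all 8 tested rose, with a median of 1.74. The metalloproteinase inhibitor timp2 was at 3518, 3471 and 3047 CPM in notochord-removed tail, against 383, 391 and 357 CPM at stage 60, and serpine2, a serine protease inhibitor, changed by 3.39 ± 0.078.

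**Figure D3:**
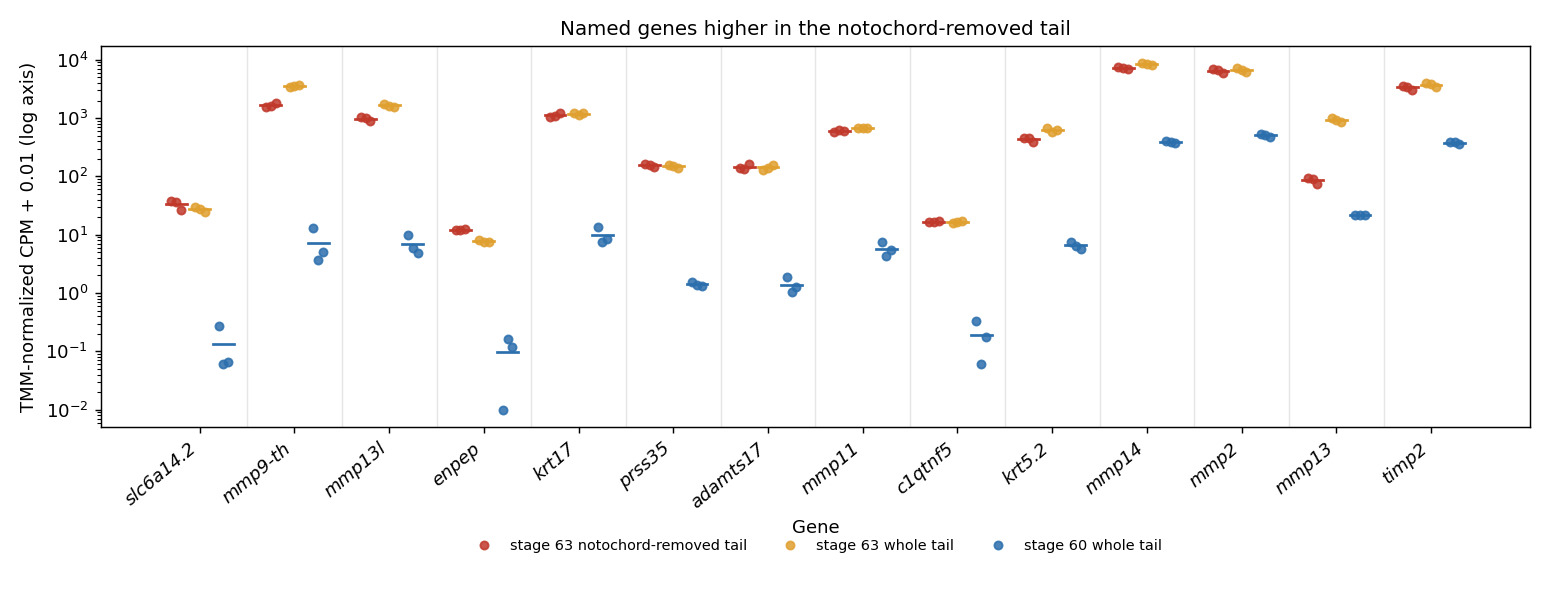
Level in each library (vertical axis, TMM-normalized CPM + 0.01, log scale) of the 10 largest named increases and 4 further protease pathway genes; bars are means of 3 libraries. The notochord-removed points lie above the stage 60 points for each gene, and mmp13 is the gene whose notochord-removed libraries (86.6 CPM on average) lie furthest below whole stage 63 tail (921 CPM).

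Genes of connective tissue matrix were higher in notochord-removed stage 63 tail than at stage 60. The cell-adhesion glycoprotein gene fn1 was at 2952, 3026 and 4268 CPM in notochord-removed tail, against 275, 245 and 267 CPM at stage 60, a change of 3.70 ± 0.14; replicate 3 was the high notochord-removed library, and without it the change was 3.51. The small proteoglycan gene bgn, at 1826, 1833 and 1827 CPM in notochord-removed tail, against 169, 163 and 155 CPM at stage 60, changed by 3.49 ± 0.071 and was also higher than in whole stage 63 tail (0.36 ± 0.064). The platelet-derived growth factor receptor genes PDGFRB and pdgfra, carried by mural cells and fibroblasts, changed by 4.94 ± 0.13 and 3.38 ± 0.10. Of 41 fibroblast matrix genes tested, 39 rose, with a median of 1.89, against 89.2% and 0.98 among all genes with a symbol. The collagen-binding sparc rose least among those described here by level, at 2083, 2086 and 2013 CPM in notochord-removed tail and 1560.0, 1609.9 and 1478 CPM at stage 60 (0.41 ± 0.065). The matricellular gene ctgf was the 1 member called lower, at 109 ± 0.966 CPM in notochord-removed tail and 125 ± 1.61 CPM at stage 60 (-0.19 ± 0.061), and with library size alone its sign flipped to 0.66. Basement membrane genes rose at all 20 tested members, with a median of 2.31. All 20 were in the authors' list of genes with a ratio of mean FPKM above 2 between whole tails of the stages. Such a ratio need not be a 2-fold rise on the TMM scale. All 17 autophagy genes tested were in that list, with a median log2 change of 0.69 for whole tail between the stages. The hemidesmosome collagen gene COL17A1 was at 970.3, 1005 and 1186 CPM in notochord-removed tail, against 177, 163 and 175 CPM at stage 60. Its groups did not overlap, as for 83.4% of all genes tested.

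Epidermal keratins held 2 of these 10 largest increases, krt17 and krt5.2. Of 22 tested genes of epidermal keratins, desmosomes and the cornified layer, 21 rose and krt8 fell, with a median of 1.78. The 21 that rose were in the authors' stage list, and krt8 was not. It was named through the notochord list and is also counted with the notochord genes below. Among all genes with a symbol 89.2% were called higher, with a median of 0.98. The stress and basal keratin gene krt17 was at 1057, 1093 and 1202 CPM in notochord-removed tail, against 13.7, 7.41 and 8.51 CPM at stage 60, a change of 6.82 ± 0.16. Basal-type krt5.2 was at 461, 454 and 382 CPM in notochord-removed tail, against 7.51, 6.44 and 5.74 CPM at stage 60 (6.04 ± 0.11), and was lower than in whole stage 63 tail (-0.52 ± 0.081). The desmosome plaque gene pkp1 changed by 4.11 ± 0.090 and the desmosomal cadherin genes dsc3 and DSG2 by 4.57 ± 0.11 and 2.15 ± 0.074. The tight junction gene cldn1 was at 1114, 1076 and 764 CPM in notochord-removed tail, against 443, 459 and 437 CPM at stage 60; its lowest notochord-removed library was replicate 3, and the change of 1.14 ± 0.11 was 1.30 without it. Genes of the krt5 family are close copies whose reads can be shared, so the split between them is uncertain.

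Most genes of the thyroid hormone pathway were higher in notochord-removed stage 63 tail than at stage 60. Among transporters that carry the hormone across the cell membrane, slc16a10 changed by 2.32 ± 0.089, and the amino acid transporter genes slc7a8 and slc3a2, whose products form a carrier that also takes up the hormone, by 1.93 ± 0.10 and 0.43 ± 0.063. Of the receptors, thrb, itself induced by the hormone in tadpoles, was at 36.5, 34.7 and 31.8 CPM in notochord-removed tail, against 10.7, 9.47 and 10.5 CPM at stage 60 (1.75 ± 0.079). The other receptor gene, thra, was at 3.20, 3.23 and 2.29 CPM in notochord-removed tail, against 1.49, 1.44 and 1.33 CPM at stage 60 (1.02 ± 0.19). The groups did not overlap for either receptor, as for 83.4% of all genes tested.

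Direct response genes followed. The Krüppel-like factor gene klf9 was at 43.2, 42.8 and 40.9 CPM in notochord-removed tail, against 8.36, 7.47 and 7.18 CPM at stage 60, and the leucine zipper gene thibz at 24.98, 25.3 and 22.6 CPM in notochord-removed tail, against 7.78, 7.98 and 7.95 CPM at stage 60. Their changes were 2.46 ± 0.077 and 1.62 ± 0.082, with no overlap between groups, as for 83.4% of all genes tested. The cytosolic hormone-binding protein gene crym changed by 3.57 ± 0.089 and was also higher than in whole stage 63 tail (0.46 ± 0.068, adjusted p = 7.46e-05), and the transcription factor gene nfic changed by 3.48 ± 0.077. The corepressor gene ncor1 (0.56 ± 0.083) and the coactivator gene ncoa3 (1.69 ± 0.078) rose too. Over the list, 24 of 25 rose with a median of 1.41, against 89.2% and 0.98 among all genes with a symbol. The coactivator ncoa2 (0.14 ± 0.064) did not pass. Glucocorticoid and mineralocorticoid signals act with thyroid hormone in metamorphosis. The mineralocorticoid receptor gene nr3c2 was at 36.95, 37.3 and 40.4 CPM in notochord-removed tail, against 5.65, 5.41 and 5.97 CPM at stage 60 (2.75 ± 0.087), the glucocorticoid receptor gene nr3c1 changed by 1.42 ± 0.084 and their shared target sgk1 by 1.99 ± 0.077. Of 7 genes in that list 6 rose, and the receptor gene crhr1.1, described below, fell.

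Lysosomal genes were higher too. Of 58 tested, 56 rose, 1 fell and 1 did not pass, with a median of 1.25, against 89.2% higher and 0.98 among all genes with a symbol. The cathepsin gene ctsb was at 3444, 3662 and 3666 CPM in notochord-removed tail, against 1237, 1238 and 1285 CPM at stage 60, and ctsv at 4095, 3959 and 3812 CPM in notochord-removed tail, against 1448, 1469 and 1473 CPM at stage 60. The sphingolipid activator gene psap changed by 2.07 ± 0.070, the ceramidase gene asah1 by 1.87 ± 0.063, and the cathepsin gene ctsf, with 2.65 ± 0.091, had the top value of the list. The exception was atp6v1b1, a proton pump subunit known from acid-secreting cells, at 1.08, 0.843 and 0.681 CPM in notochord-removed tail, against 1.33, 1.60 and 2.04 CPM at stage 60 (-0.94 ± 0.24); with library size alone it was at -0.09 and not called. The lysosome regulator tfeb did not pass (-0.02 ± 0.086). In the cell death list, 18 of 19 rose, with a median of 0.80, below the 0.98 of all genes with a symbol. The BH3-only death genes bmf and bcl2l11 changed by 2.35 ± 0.076 and 2.10 ± 0.079 and the pore-forming bax by 1.72 ± 0.10, while the anti-apoptotic mcl1 and bcl2 changed by 0.38 ± 0.070 and 0.84 ± 0.26. The level of bax was 18.96, 21.2 and 19.6 CPM in notochord-removed tail, against 6.50, 6.49 and 5.19 CPM at stage 60, and was lower than in whole stage 63 tail (-0.45 ± 0.078). Autophagy genes had the lowest median of the lists with 8 or more members other than the notochord list, at 0.61. Of these genes 15 of 17 rose, a share near the 89.2% of all genes with a symbol. The initiating kinase genes ULK2 (2.23 ± 0.087) and ulk1 (1.73 ± 0.075) changed most, and map1lc3b, which coats the autophagosome, changed by 0.61 ± 0.059.

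Vessel markers were higher in the notochord-removed tail. Blood cell markers rose too, at shares and medians near those of all genes with a symbol (89.2% called higher, median change 0.98). Of 36 markers of macrophages and other leukocytes 33 rose, 1 fell and 2 did not pass, with a median of 1.09; their summed level ran from 3259 to 3440 CPM in notochord-removed tail, from 3490 to 3536 CPM in whole stage 63 tail and from 1626 to 1652 CPM at stage 60. Several lysosomal and protease genes are also expressed by macrophages, and the part of these cells in those changes was not tested. The phagosome metal transporter gene slc11a1 was at 56.6, 61.1 and 66.95 CPM in notochord-removed tail, against 1.38, 1.34 and 1.27 CPM at stage 60, a change of 5.53 ± 0.11. The receptor gene csf1r, a marker of macrophages, was at 581, 584 and 567 CPM in notochord-removed tail, against 282, 307 and 287 CPM at stage 60 (0.98 ± 0.062). The oxidase gene ncf4 was the 1 called lower, at -0.24 ± 0.11; its call was lost in 10 of the 18 alternative settings and its sign flipped with library size alone (0.61). The granulocyte enzyme gene mpo changed by 2.77 ± 0.086 and was lower than in whole stage 63 tail (-0.87 ± 0.072); 13 of the 36 markers were lower in that test and 4 higher, against 15.3% lower and 8.46% higher among genes with a symbol, so the number higher was near the background. Lymphocyte markers rose at 10 of 11, with the T cell costimulator cd28 at 1.58 ± 0.067 and the B cell gene ms4a1 at 0.84 ± 0.069. Of 24 cytokine, chemokine and innate sensing genes all rose, with a median of 1.44: the chemokine receptor gene cxcr4 was at 43.2, 43.3 and 45.8 CPM in notochord-removed tail, against 2.45, 2.37 and 2.71 CPM at stage 60 (4.14 ± 0.091), and the receptor subunit genes il6st and tgfbr2 changed by 2.63 ± 0.089 and 2.54 ± 0.074.

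In the vessel list 30 of 31 rose, with a median of 2.20, against 89.2% and 0.98 among all genes with a symbol, and acta2 did not pass. The endothelial Notch ligand gene dll4 was at 43.7, 42.5 and 40.3 CPM in notochord-removed tail, against 1.70, 1.49 and 1.71 CPM at stage 60 (4.69 ± 0.098), and the endothelial cadherin gene cdh5 at 73.02, 67.6 and 69.9 CPM in notochord-removed tail, against 4.79, 5.92 and 5.52 CPM at stage 60 (3.69 ± 0.086). The growth factor receptor gene flt1 changed by 4.36 ± 0.35, or by 5.74 without stage 60 replicate 3, and the scavenger receptor gene stab2 by 2.09 ± 0.13. Against whole stage 63 tail, 11 of the 31 were higher in notochord-removed tail and 1 lower, where 8.46% and 15.3% of genes with a symbol were, with cdh5 at 0.35 ± 0.064, tie1 at 0.45 ± 0.065 and dll4 at 0.25 ± 0.060. Of 30 listed red cell symbols 5 had a named row and 3 were tested: epb41, rhag and tfrc changed by 0.99 ± 0.083, 1.09 ± 0.091 and 0.62 ± 0.12. Of 13 genes of hypoxia and the glycolytic switch 12 rose. The oxygen-regulated factor hif1a changed by 1.20 ± 0.075 and the kinase gene pdk4, which holds pyruvate back from oxidation, by 2.04 ± 0.067.

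Nerve genes were the list, among those with at least 8 tested members, with the smallest share of members passing the test. In the neuronal list 13 of 23 tested genes rose and 10 did not pass, with a median of 0.99. The tubulin gene tubb2b was at 9.31, 8.85 and 10.2 CPM in notochord-removed tail, against 8.58, 10.2 and 7.24 CPM at stage 60, a change of 0.12 ± 0.11 within the spread of the libraries. The intermediate filament gene prph and the microtubule gene map1b rose by 0.99 and 0.93. The adhesion genes NCAM1 and l1cam changed by 2.74 ± 0.15 and 3.08 ± 0.39; l1cam was at 8.46, 9.63 and 16.1 CPM in notochord-removed tail, against 1.76, 0.978 and 1.33 CPM at stage 60. Many of these levels were low. With library size alone 22 of the 23 were called higher, where 9794 of all 14125 genes tested were. All 23 were in the stage list, so neither count of risers is independent evidence of direction. With a mean of at least 1 CPM required, 9 members were tested and 5 called higher. Glia and floor plate genes rose at 6 of 8, too few members to set that share apart from the 89.2% of all genes with a symbol. The crest factor gene sox10 was at 36.1, 34.7 and 34.1 CPM in notochord-removed tail, against 5.91, 6.64 and 6.68 CPM at stage 60. The myelin genes mpz and mag changed by 1.24 ± 0.091 and 2.28 ± 0.22, and egr2 is given with the early response genes below. The floor plate and notochord factor foxa2 fell (-1.88 ± 0.43), and was the only tested member outside the stage list.

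Muscle could hardly be followed by name. Of 58 symbols listed for the contractile apparatus 4 had a named row, of 42 for excitation and energy 2, and of 20 for myogenic and atrophy genes 3; the atrophy ligase genes fbxo32 and trim63 had no named row to measure. The myosin light chain gene myl3 was at 1.05, 0.871 and 2.34 CPM in notochord-removed tail, against 13.3, 13.4 and 13.6 CPM at stage 60, a change of -3.21 ± 0.22, or -3.80 without notochord-removed replicate 3. The M-band gene myom3 changed by -3.17 ± 0.24, and the muscle glycolytic gene pgam2 (ENSXETG00000018980, scaffold GL172666.1, 2250682 to 2257065), which all 3 notochord-removed libraries held at 16.4, 15.2 and 18.5 CPM, against 685, 659 and 681 CPM at stage 60, by -5.33 ± 0.083. These 3 were named through the notochord list, that is for being lower in notochord-removed than in whole stage 63 tail, where pgam2 was at 50.2 ± 1.76 CPM. The heart-type troponin gene tnnt2 rose by 2.11 ± 0.080. The smooth muscle actin gene acta2 was at 70.5, 83.03 and 135 CPM in notochord-removed tail, against 66.4, 67.7 and 67.7 CPM at stage 60, and its change of 0.52 ± 0.23 did not pass (adjusted p = 0.0659); without the high replicate 3 it was 0.19 and passed. The glycogen phosphorylase gene pygm changed by 0.37 ± 0.13, and by 0.16, which did not pass, without that replicate. Its call was also lost without stage 60 replicate 3. The factors mef2d, six4 and foxo3 rose by 1.01, 0.56 and 0.51.

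Of the 10 largest decreases among genes with a symbol, 6 were in the notochord and cartilage matrix list: chad, des.2, vim.2, krt18l, t2 and COL9A1. The other 4 were c3orf49, gatm, crhr1.1 and pgam2. Of the 58 lower genes with a symbol, 40 were named only because notochord removal reduced them. The list was also written with earlier results known, so its share of this ranking is no independent result. Of 21 tested genes of the notochord and cartilage matrix list 11 fell, 8 rose and 2 did not pass, and the summed level of the list ran from 650.5 to 655 CPM in notochord-removed tail, from 792 to 823 CPM in whole stage 63 tail and from 4010 to 4036 CPM at stage 60. Most of the stage 60 sum came from the filament genes krt8, des.2 and vim.2, whose levels are given below. With library size alone 11 rose and 10 fell, where 9794 of all 14125 genes tested rose and 2566 fell. The T-box gene t2, a copy related to brachyury (ENSXETG00000026572, scaffold GL173068.1, 328396 to 337291), was at 0.283, 0.309 and 0.219 CPM in notochord-removed tail, against 24.2, 27.5 and 25.4 CPM at stage 60, a change of -6.56 ± 0.15. The brachyury gene tbxt itself was at 0.594, 0.309 and 0.292 CPM in notochord-removed tail, against 2.61, 2.16 and 2.60 CPM at stage 60, a change of -2.63 ± 0.24. Neither gene's groups overlapped, as for 83.4% of all genes tested, and both were near 0 in notochord-removed tail. The sheath collagen gene col2a1 and the signal gene shh could not be measured, for want of a row with their symbol.

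Whole stage 63 tail separated genes that were low in both stage 63 tissues from genes that were low in notochord-removed tail alone. Each pair of values below shares libraries, so the parts are a description: the change in whole tail between the stages, and the test of notochord-removed against whole stage 63 tail. Most of these genes were named through the list of genes reduced by notochord removal, so the sign of that second value was set by the selection. For the intermediate filament gene des.2, levels were 0.467 ± 0.433 CPM in notochord-removed tail, 4.38 ± 0.0928 CPM in whole stage 63 tail and 1199.7 ± 10.2 CPM at stage 60 (SD, n = 3 each). Its change was -11.25 ± 0.24, with -8.09 for whole tail between the stages and -3.16 for notochord-removed against whole stage 63 tail; without notochord-removed replicate 3, the highest of its group, the change was -12.35. The vimentin-type vim.2 averaged 0.527 ± 0.303 CPM in notochord-removed tail, 9.86 ± 0.631 CPM in whole stage 63 tail and 840.2 ± 5.69 CPM at stage 60; its change was -10.59 ± 0.15, or -11.20 without notochord-removed replicate 3. The keratin-like krt18l was at 0.291 ± 0.130 CPM in notochord-removed tail, 0.972 ± 0.175 CPM in whole stage 63 tail and 199 ± 3.83 CPM at stage 60. These 3 filament genes shared one order, with the stage 60 libraries far above both stage 63 groups. The keratin gene krt8 averaged 52.1 ± 7.82 CPM in notochord-removed tail, 108 ± 2.24 CPM in whole stage 63 tail and 1276 ± 17.1 CPM at stage 60. Levels of gatm, which makes a creatine precursor, were 0.105 ± 0.0355 CPM in notochord-removed tail, 0.263 ± 0.127 CPM in whole stage 63 tail and 44.5 ± 2.12 CPM at stage 60. The sheath collagen gene COL9A1 averaged 0.610 ± 0.0846 CPM in notochord-removed tail, 4.44 ± 0.466 CPM in whole stage 63 tail and 39.9 ± 3.73 CPM at stage 60. For all 6, whole tail was already far below its stage 60 level at stage 63.

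The cartilage matrix gene chad had 2 counts in the 3 notochord-removed libraries, against 4400 at stage 60, a ratio, stage 60 over notochord-removed, of 4378 after scaling (95% counting interval from 1211 to 36165). The uncharacterized c3orf49 also had 2 counts, against 3420, a ratio of 3403 (interval from 941 to 28112). For chad, whole stage 63 tail held 0.894 ± 0.233 CPM and stage 60 tail 78.3 ± 5.12 CPM, and for c3orf49 whole stage 63 tail held 2.09 ± 0.159 CPM and stage 60 tail 60.9 ± 5.93 CPM. The cartilage angiogenesis inhibitor gene cnmd changed by -4.42 ± 0.088.

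For crhr1.1, t2 and tbxt, the difference between the stage 63 tissues was larger than the change of whole tail between the stages. The receptor gene crhr1.1, which binds corticotropin-releasing hormone, the brain peptide that drives metamorphic hormone release, was at 0.538, 0.646 and 0.414 CPM in notochord-removed tail, 22.3, 19.9 and 19.8 CPM in whole stage 63 tail and 29.3, 28.8 and 28.9 CPM at stage 60. Its difference from whole stage 63 tail was -5.28 ± 0.12, and whole tail between the stages changed by -0.49 ± 0.075. For t2 these values were -5.10 ± 0.16 and -1.47 ± 0.085. For tbxt they were -3.36 ± 0.20 and 0.73 ± 0.16, so that tbxt was highest in whole stage 63 tail (4.19, 4.22 and 3.83 CPM). Among the 8 members of the list that rose, the cartilage link protein gene hapln1 changed by 4.12 ± 0.38, its relative hapln3 by 3.00 ± 0.083, the fibrillar collagen gene col27a1 by 2.98 ± 0.077 and the chondrocyte factor sox9 by 0.64 ± 0.13; these were named through the stage list.

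**Figure D4:**
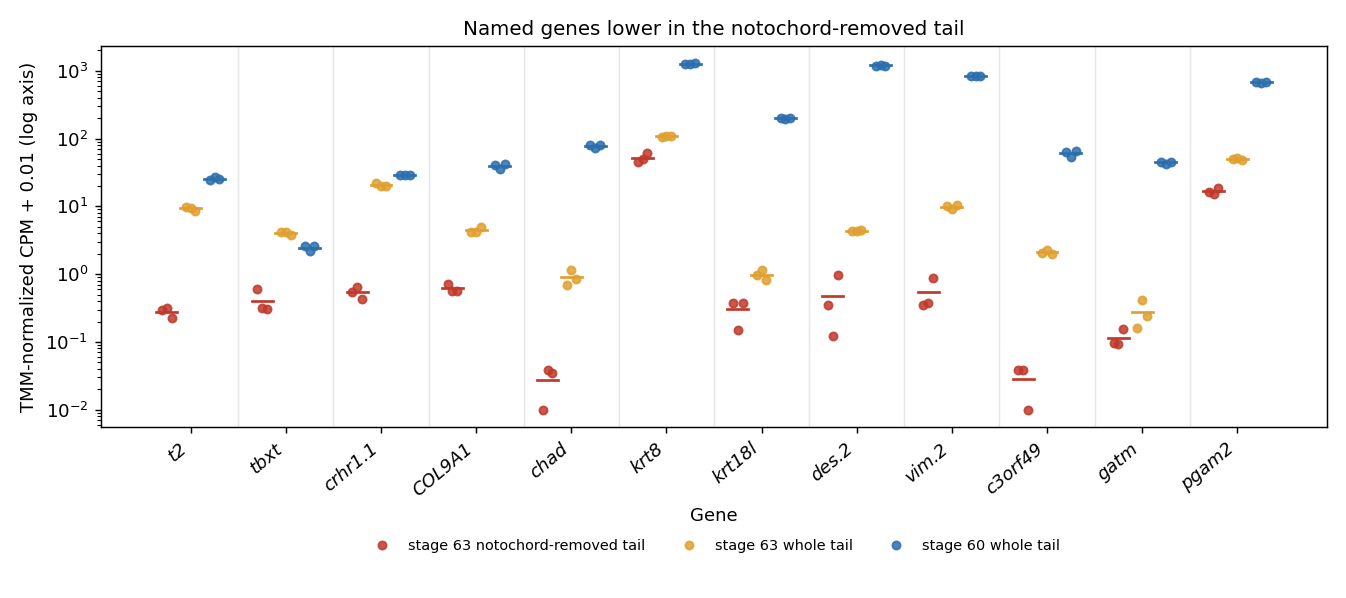
Level in each library (vertical axis, TMM-normalized CPM + 0.01, log scale) of 12 named genes lower in notochord-removed stage 63 tail than in stage 60 tail; bars are means of 3 libraries. For des.2, vim.2, krt18l, gatm and chad whole stage 63 tail also lies far below stage 60, while for crhr1.1 it lies near stage 60 (20.7 against 29.0 CPM) and for tbxt above it (4.08 against 2.46 CPM).

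Genes that respond within minutes to stimulation differed between notochord-removed and whole stage 63 tail in a larger share of members than the other lists with at least 8 tested members. Of 23 tested immediate early and stress response genes 22 rose against stage 60 and none fell, with a median of 1.86. Among all genes with a symbol 89.2% were called higher in that comparison. Against whole stage 63 tail 16 of the 23 were higher and 1 lower, where 8.46% and 15.3% of genes with a symbol were. The zinc finger gene egr1 (ENSXETG00000006697, scaffold GL172879.1, 1002751 to 1006373) was at 319, 325 and 321 CPM in notochord-removed tail, 76.4, 82.3 and 86.3 CPM in whole stage 63 tail and 19.97, 21.9 and 19.4 CPM at stage 60. The AP-1 subunit gene jun was at 194, 198 and 220.2 CPM in notochord-removed tail, 89.96, 96.99 and 100.2 CPM in whole stage 63 tail and 27.6, 27.5 and 27.8 CPM at stage 60. Its relative junb was at 347, 365 and 365 CPM in notochord-removed tail, 168, 159 and 167 CPM in whole stage 63 tail and 48.6, 45.1 and 44.3 CPM at stage 60. For these 3 genes the groups had one order with no overlap, notochord-removed tail highest and stage 60 lowest. Over all genes tested, 39.3% did not overlap between the stage 63 tissues and 83.4% between notochord-removed and stage 60 tail. The change against stage 60 was 3.97 ± 0.075 for egr1, 2.89 ± 0.073 for jun and 2.96 ± 0.067 for junb, and against whole stage 63 tail 1.98 ± 0.065, 1.09 ± 0.065 and 1.12 ± 0.061. The fos gene had no named row to measure.

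Feedback regulators of this response differed between the stage 63 tissues as well. The cytokine signal inhibitor gene socs3 was at 133, 135 and 136 CPM in notochord-removed tail, 30.1, 29.9 and 31.9 CPM in whole stage 63 tail and 23.3, 18.2 and 20.99 CPM at stage 60. The phosphatase gene dusp1 was at 402, 393 and 346 CPM in notochord-removed tail, 115, 122 and 117 CPM in whole stage 63 tail and 73.98, 69.8 and 71.6 CPM at stage 60. Whole tails of the 2 stages were thus closer to each other than to the notochord-removed tail: the difference from whole stage 63 tail was 2.13 ± 0.073 for socs3 and 1.69 ± 0.068 for dusp1, and the change of whole tail between stages 0.56 ± 0.079 and 0.72 ± 0.069. The growth response gene egr2 (3.04 ± 0.17), IER2 (2.38 ± 0.080) and the prostaglandin synthase gene ptgs2 (1.69 ± 0.084) rose as well. The mRNA-decay factor zfp36 rose by 1.61 ± 0.063, and its difference from whole stage 63 tail was 0.94. The heme oxygenase gene hmox1 was the member called lower than in whole stage 63 tail (-0.44 ± 0.070), although it rose against stage 60 (2.68 ± 0.080), and the antiproliferative btg1 (0.35 ± 0.064) did not differ between the stage 63 tissues beyond the threshold (-0.06 ± 0.064). The notochord-removed tails alone went through the removal, and its handling and the absence of the notochord cannot be told apart.

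**Figure D5:**
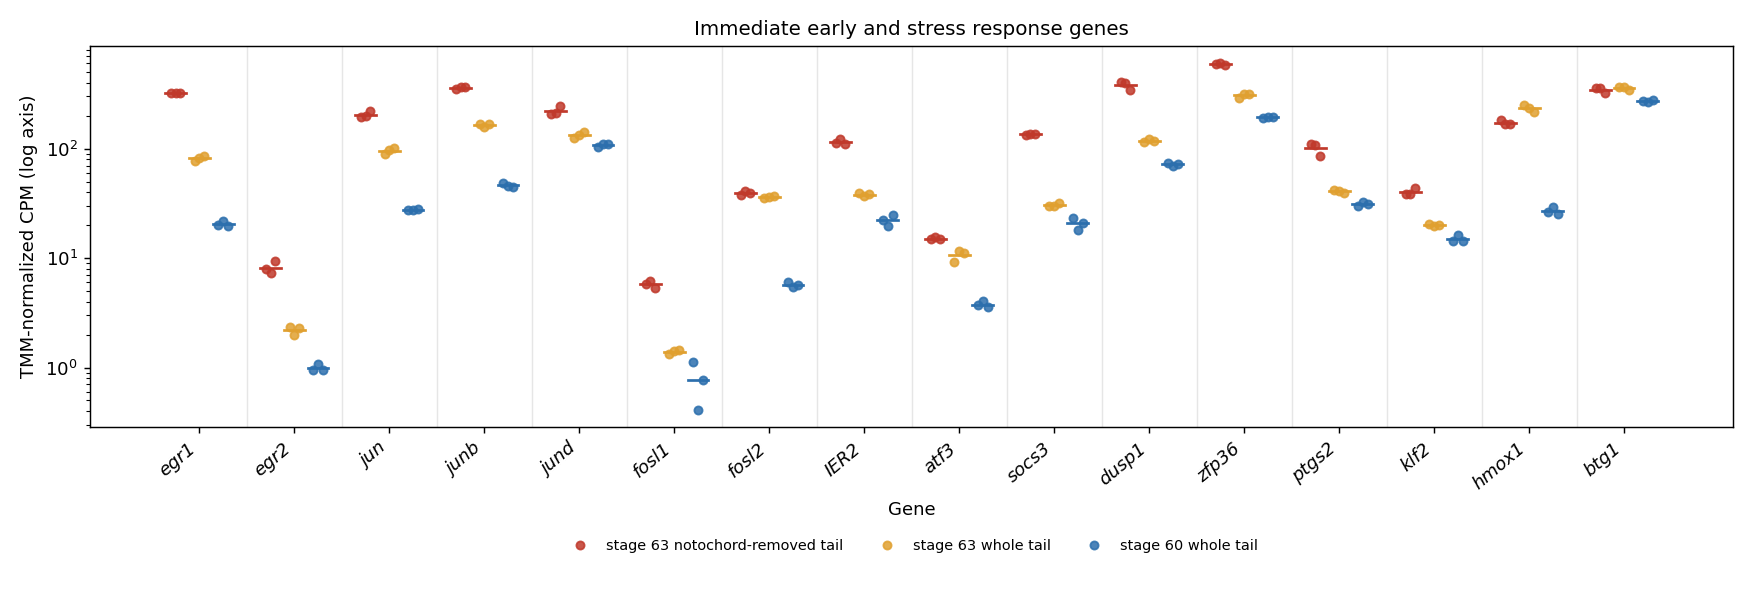
Level in each library (vertical axis, TMM-normalized CPM, log scale) of 16 immediate early and stress response genes; bars are means of 3 libraries. For egr1, jun, junb, socs3 and dusp1 the notochord-removed libraries lie above both whole-tail groups, while hmox1 and btg1 do not follow that order.

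Most of what fell has no name in the files. Of the 2855 genes at least 2-fold lower, 2809 had no symbol, so these genes can be described mainly by their share of the counts and their position. The gene with no symbol and the largest fall, ENSXETG00000030183 (scaffold GL173464.1, 326290 to 349211), was at 1.47, 1.21 and 1.41 CPM in notochord-removed tail, 54.4, 51.6 and 49.8 CPM in whole stage 63 tail and 1528, 1446 and 1615 CPM at stage 60 (-10.13 ± 0.11). The next, ENSXETG00000032045 (scaffold GL172750.1, 404267 to 422367), had 6 counts in notochord-removed tail and 3135 at stage 60 (-9.92 ± 0.19). The largest rise without a symbol was ENSXETG00000001040 (scaffold GL173026.1, 78072 to 85446), at 144, 138 and 106 CPM in notochord-removed tail, against 0.373, 0.309 and 0.387 CPM at stage 60 (8.49 ± 0.20). Genes at least 2-fold higher had a median length in the count table of 1920.5 bases and genes at least 2-fold lower 1357 bases, against 1770 bases over all genes tested.

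Some of the genes that fell lie side by side. On scaffold GL172650.1, 7 neighbouring tested genes between 2211914 and 2317301 each fell by at least 4-fold, with log2 changes from -7.10 to -3.44. Together they held 0.273% of counts in notochord-removed tail, on average, and 2.59% at stage 60. None of the 7 has a symbol, as is the case for most genes that fell. Runs of 4 such genes lay on GL172891.1 and GL173290.1. Among genes that rose at least 4-fold, 4 neighbours on GL172720.1 between 984290 and 1652320 included the cadherin-family genes DSG2, dsc3 and cdh2, with changes from 2.15 to 5.74, and 5 neighbours on GL172701.1 included the clustered protocadherin gene pcdhga3. Reads of clustered protocadherins and other tandem copies can be shared in counting, so values within such runs are uncertain. These runs were looked for after other results were known and carry no test.

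Mitochondrial transcripts took a larger share of the counts. Genes on the scaffold that holds COX1, the cytochrome oxidase subunit gene of the mitochondrial genome, held 5.09% ± 0.192 of counts in notochord-removed tail and 2.19% ± 0.100 at stage 60 (SD, n = 3 each), and 4.34% in whole stage 63 tail. Of 35 tested genes there 12 rose (34.3%) and 6 fell (17.1%) on the TMM scale, both below the 43.3% and 39.7% of all genes tested. With library size alone 28 rose and 1 fell, where 9794 of all 14125 genes tested rose and 2566 fell. The median change of all genes with that scaling was 0.92. The level of COX1 was 12784, 12671 and 13084 CPM in notochord-removed tail, against 9201, 8813 and 8522 CPM at stage 60 (0.54 ± 0.074). For nuclear energy genes names were lacking: of 74 symbols of oxidative phosphorylation only the subunit gene cox4i2 had a named row, and it rose by 1.55 ± 0.14. None of 77 ribosomal protein symbols and 2 of 40 proteasome symbols had one. The immunoproteasome subunit gene psmb8 was at 9.03, 10.1 and 8.18 CPM in notochord-removed tail, 26.3, 25.1 and 26.8 CPM in whole stage 63 tail and 15.8, 16.2 and 15.03 CPM at stage 60; its change of -0.79 ± 0.087 flipped to 0.06 with library size alone, and its difference from whole stage 63 tail was -1.52 ± 0.079. Of 46 cell cycle symbols, ccnd1, top2a and ccnb1 had rows. The cyclin gene ccnd1 changed by 0.84 ± 0.20 and top2a by 0.55 ± 0.23, a call lost with RLE scaling, DESeq2 and limma-voom and without notochord-removed replicate 3, stage 60 replicate 1 or stage 60 replicate 3. The mitotic cyclin gene ccnb1 had 15 counts in notochord-removed tail and 1 at stage 60, a ratio of 7.54 (95% counting interval from 1.16 to 317), and its call was lost without notochord-removed replicate 1, stage 60 replicate 1 or stage 60 replicate 3.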

How the data were processed

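Total RNA of tails was sequenced after Illumina TruSeq library preparation, per the labels' protocols, and the submitters' processing notes name STAR 2.5.4a and featureCounts 1.5.2. The deposited table holds raw counts per gene, per the file headers; genome build and strand setting are not given in the sources used here, so reads of overlapping or antisense genes may be mixed. The authors' deposited lists of selected genes hold group mean FPKM and the ratio of those means; these values were not used, only the gene symbols beside them. The RefSeq table (assembly UCB_Xtro_10.0) matched none of the identifiers and gave no names. No sequences are printed.

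The test was edgeR 4.0.16 under R 4.3.3 (filterByExpr, TMM, robust glmQLFit, glmQLFTest), fitted to all 9 libraries by group, with Benjamini-Hochberg adjusted p under 0.05 over the 14125 genes kept. TMM factors ran from 0.672 to 0.690 at stage 60 and from 1.18 to 1.25 at stage 63. Standard errors were back-calculated from the F statistic and the log2 fold change, which makes them approximate, above all for genes with few counts. Counting intervals are exact binomial ones and cover counting error only. The steps were tested on simulated counts in which few genes changed, evenly in both directions, from a composition shared by all libraries. That simulation therefore cannot test the scaling under the shift in composition seen here.

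The comparison, the 27 gene lists and the rule for named genes were chosen with earlier results of these data known. The rule took the 10 largest and 10 smallest changes among called genes with a symbol, a mean of 10 CPM or more in one group and separated groups, the 2 largest and smallest without a symbol, up to 5 members per list and a fixed set, of which col2a1, shh, fbxo32, trim63 and fos, among others, had no tested named row. A few genes that the rule takes are not reported here. Other list members given as examples were chosen after their values were seen. Results were recomputed with DESeq2 1.42.0, limma-voom (limma 3.58.1), other scalings and filters, a replicate block, a stricter threshold, only the 6 libraries compared, and leaving out each library.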

Additional observations from a re-analysis of the deposited data

Results flagged for a closer look

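In 58 genes, of which 14 have a symbol, the call against stage 60 had opposite directions with and without the notochord: lower in notochord-removed stage 63 tail, higher in whole stage 63 tail, or the reverse, with the difference between the stage 63 tissues itself passing edgeR's test. Both signs held under every scaling tried for 4 of the 14, all lower in notochord-removed and higher in whole stage 63 tail than at stage 60. Both lists that gave symbols held genes selected for a higher value in whole stage 63 tail. A named gene of the reverse kind was therefore hardly possible, and the shared direction was set by the naming. The thyrotropin-releasing hormone gene trh was at 0.113, 0.140 and 0.122 CPM in notochord-removed tail, 1.97, 2.27 and 1.79 CPM in whole stage 63 tail and 1.12, 1.03 and 0.829 CPM at stage 60, a difference of -3.96 (log2, notochord-removed minus whole stage 63). For xt6l the difference was -3.39, for the notochord factor gene tbxt -3.36 and for exd1 -1.52. Levels of exd1 were 8.37, 6.97 and 7.25 CPM in notochord-removed tail, 20.7, 21.8 and 22.3 CPM in whole stage 63 tail and 14.3, 15.3 and 15.8 CPM at stage 60, and with library size alone its call against stage 60 was lost (-0.16). The levels of trh, xt6l and tbxt are low, at most 7.76 CPM on average in any group.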

How the results depend on the processing

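Scaling by library size alone gave 9794 genes higher and 2566 lower in notochord-removed stage 63 tail than in stage 60 tail, and 6714 and 1142 by at least 2-fold; it also turned psmb8 to 0.063, tap2 to 0.32, ctgf to 0.66, ncf4 to 0.61, adamts14 to 0.65 and tfeb to 0.83. The other scalings, filters, tests and the stricter threshold left these counts within 1.5 times. Leaving out single libraries gave from 5894 to 6156 genes higher and from 5452 to 5649 lower, and from 3246 to 3308 and from 2869 to 2915 by at least 2-fold. Genes that differed between notochord-removed and whole stage 63 tail numbered 3613, with 2070 at an adjusted p under 0.01; leaving out single libraries gave from 2481, without whole stage 63 replicate 2, to 4423, without notochord-removed replicate 3. Of 172 genes recomputed, 170 had a value in all 18 settings; ccnb1 and foxa2 failed the 1 CPM filter, and ccnb1 that of the 6 libraries alone. Among them only psmb8, tap2, ctgf, ncf4, adamts14 and tfeb changed sign, all with library size alone; tfeb and adamts14, which did not pass with TMM, also did so in other settings. In all, 13 genes crossed the threshold in at least 1 setting that kept their sign: acta2, pygm, cd3g, tubb2b, ccnb1, top2a, exd1, fth1, tap2, ncf4, adam19, atp6v1b1 and ncoa2. Same-numbered libraries of notochord-removed and stage 60 tail showed no sign of pairing, with correlations of -0.053, -0.0087 and -0.0060. Pairing by number between the stage 63 tissues was not examined. A replicate block gave 6146 genes higher, 5653 lower, and 3279 and 2860 by at least 2-fold. Between the stage 63 tissues it gave 4204, against 3613 without it. Depth limits genes with few counts in 1 group, such as slc6a14.2 (7 counts at stage 60), c1qtnf5 (10) and enpep (5), whose change ran from 6.46 to 7.70 without single libraries; for slc6a14.2 it ran from 7.66 to 9.20 and for c1qtnf5 from 6.07 to 7.24.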

Other observations

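The gene ENSXETG00000013238 (scaffold GL173025.1, 920062 to 923030), which has no symbol and was chosen after its values were seen, was at 438, 421 and 351 CPM in notochord-removed stage 63 tail, 14.5, 13.03 and 11.9 CPM in whole stage 63 tail and 14.4, 11.9 and 12.5 CPM at stage 60. The whole-tail groups overlapped, and the notochord-removed libraries lay far above them, with a change of 4.96 ± 0.11 against stage 60 and a difference of 4.94 ± 0.10 from whole stage 63 tail. The antigen peptide transporter gene tap2, also chosen after its values were seen, was at 1.58, 1.26 and 1.97 CPM in notochord-removed tail, 5.87, 6.28 and 6.18 CPM in whole stage 63 tail and 2.13, 2.11 and 2.82 CPM at stage 60. The ferritin gene fth1 was at 39241, 39522 and 33067 CPM in notochord-removed tail, against 35854, 33436 and 36402 CPM at stage 60, and its change of 0.08 ± 0.094 did not pass.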
